A study of Homo sapiens with 9 samples.

Results

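CCND2, CCND3, CDK6, CDKN1A, CDKN1B and CDKN2A, the G1 cyclin, kinase and inhibitor genes described here, were examined through the open chromatin regions at each of them in Jurkat cells. Peaks of 4 lists that overlapped or touched were merged into regions, and a region was assigned to a gene when it lay in the gene body or within 50 kb of the start of the gene record. On the autosomes, X and Y this gave 53 regions of 40703 in all, 4 at CCND2, 12 at CCND3, 28 at CDK6, 2 at CDKN1A, 7 at CDKN1B and 0 at CDKN2A. Regions of one gene share a locus and a library, and are not replicates of a condition.

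A cell that leaves quiescence makes D-type cyclins, which bind CDK4 or CDK6 and phosphorylate the retinoblastoma protein so that E2F factors can switch on genes for DNA replication. The inhibitor p16, one product of CDKN2A, blocks CDK4 and CDK6, whereas p21 (CDKN1A) and p27 (CDKN1B) act mainly on CDK2 complexes. In T cells, signals from the antigen receptor raise D-type cyclins and CDK6 and lower p27, which carries a resting cell into division. CDK6 and CCND3 are expressed in developing thymocytes and are often active in T cell leukaemia.

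Jurkat is a T cell leukaemia line, grown here as clone E6-1, so every list describes 1 transformed line and not a resting T cell. Formaldehyde-assisted isolation of regulatory elements followed by sequencing (FAIRE-seq) recovers DNA that is free of nucleosomes. The study made 1 library for each of 4 states, non-stimulated (NS), stimulated, stimulus withdrawal (SW) and re-stimulated, after DMSO or after rottlerin, an inhibitor sold against protein kinase C, and 1 total input library, and 4 of its 9 samples have a list used here. By the labels these are NS cells pre-treated with DMSO, SW cells pre-treated with DMSO, and cells of the same states given 15 μM rottlerin for 1 h beforehand. By the labels, SW cells received 24 ng/mL phorbol ester (PMA) with 1 μM calcium ionophore for 4 h and were then washed and rested for 1 day, a stimulation longer than the one in the study's methods.

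The labels and the study's methods also differ on which cells the 4 lists describe. In the methods, peaks were called on the DMSO samples of all 4 states, and no peak set of rottlerin samples was merged. All peaks of the 4 lists used here merged into 40731 regions, which equals the size of that DMSO set. Each list is therefore named by its label (NS, SW, NS rottlerin and SW rottlerin), and a difference between lists is given as a difference between those libraries, with no state or drug effect drawn from it. With 1 library per label there is no spread between replicates and no test, and 95% Wilson intervals cover counting error only. The lists held 18977 peaks for NS, 20132 for SW, 23835 for NS rottlerin and 30409 for SW rottlerin, but they do not give read depth, and where no peak is listed none was called at the depth of that library. The median fold enrichment over total input, the linear value in column 7 of each list, was 4.05, 4.03, 4.08 and 4.03 in the same order. Of 9 T cell markers, 5, 6, 5 and 6 had a peak within 1 kb of the gene start, with CD3D, CD3E and CD28 among them in every list, whereas 0 of 4 B cell and 0 of 4 myeloid markers had one in any list.

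For CCND3, CDK6, CDKN1A and CDKN1B, genes with a region lacking an NS peak, the central 200 bases of 1 such region are shown, namely, among regions whose shown bases hold no annotated UTR, the one with a peak in the most lists and then the highest fold enrichment. All are read from the forward strand of GRCh37, and distances are from the middle of a region to the start of the Ensembl canonical transcript, negative when upstream. Capitals mark a match on either strand to 1 of the motifs searched. For factors of T cell activation these were AP1 with the letters TGACTCA and NFAT with the letters TGGAAA, and NFKB with its usual consensus. For factors of the T cell lineage they were CCGGAA for the ETS family, AGATAA for GATA factors, TGTGGT for RUNX factors and CACCTG for one kind of E-box, with CAGCTG for the other kind. For growth-related factors they were GTGGGCG for the EGR family, GGGCGG for the GC box, and TTCCCGC for E2F factors, with TTGGCGC as a second form. The EGR and GC box letters can share bases. Capitals in these sequences are matches of letters and not bound sites.
CCND3 region at −0.19 kb, chr6:41909632-41909831: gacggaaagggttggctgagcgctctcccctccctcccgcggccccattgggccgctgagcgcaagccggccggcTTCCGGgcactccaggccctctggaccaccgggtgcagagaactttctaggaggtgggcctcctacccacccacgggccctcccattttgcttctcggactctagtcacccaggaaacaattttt
CDK6 region at −18.7 kb, chr7:92484481-92484680: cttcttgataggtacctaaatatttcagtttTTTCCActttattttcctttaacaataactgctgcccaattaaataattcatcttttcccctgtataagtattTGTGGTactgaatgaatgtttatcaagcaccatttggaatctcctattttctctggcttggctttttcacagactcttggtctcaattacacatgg
CDKN1A region at +1.80 kb, chr6:36648186-36648385: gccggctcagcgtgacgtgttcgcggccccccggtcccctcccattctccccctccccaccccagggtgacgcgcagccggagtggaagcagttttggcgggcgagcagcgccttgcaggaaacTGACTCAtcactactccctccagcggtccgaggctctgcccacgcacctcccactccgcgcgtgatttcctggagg
CDKN1B region at −20.4 kb, chr12:12849806-12850005: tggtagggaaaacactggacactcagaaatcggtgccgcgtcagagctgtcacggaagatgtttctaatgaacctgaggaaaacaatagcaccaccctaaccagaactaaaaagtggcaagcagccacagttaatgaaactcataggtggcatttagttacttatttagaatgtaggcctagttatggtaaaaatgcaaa

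Among these, the CDK6 sequence held 1 NFAT and 1 RUNX match, the CCND3 sequence 1 ETS match and the CDKN1A sequence 1 AP1 match, and the CDKN1B sequence held none. Their GC content ran from 34.0% at CDK6 to 68.5% at CDKN1A. The following 2 sequences were chosen after their values were seen, because their fold enrichment exceeded that in NS by the largest ratio in the list labelled SW and in the list labelled NS rottlerin.
CDKN1A region at +4.27 kb, chr6:36650664-36650863: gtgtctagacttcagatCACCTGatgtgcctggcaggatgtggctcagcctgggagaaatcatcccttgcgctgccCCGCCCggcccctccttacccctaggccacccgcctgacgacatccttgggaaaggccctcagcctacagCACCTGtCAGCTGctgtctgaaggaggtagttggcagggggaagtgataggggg
CDK6 region at +202 kb, chr7:92263411-92263610: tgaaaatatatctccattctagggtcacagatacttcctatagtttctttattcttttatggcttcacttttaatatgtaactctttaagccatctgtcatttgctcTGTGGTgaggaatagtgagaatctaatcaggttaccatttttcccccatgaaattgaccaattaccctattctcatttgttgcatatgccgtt

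In the CDKN1A sequence at +4.27 kb the capitals mark 2 CACCTG boxes, 1 CAGCTG box and 1 GC box, and in the CDK6 sequence at +202 kb 1 RUNX match. This CDK6 sequence is the middle of a merged region of 2111 bp. Whether the peaks behind its ratio cover these bases was not checked.

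Across the 53 regions, the list labelled SW rottlerin, the longest, had a peak in the most regions. With each list cut to the same number of peaks, 41 regions were left and this order was not kept. NS then had a peak in 31 regions, SW in 27, NS rottlerin in 24 and SW rottlerin in 24. No share of each list over all regions under this cut stands beside these counts, so the order is not read as particular to these genes. NS had a peak in 31 regions (58.5%, interval 45.1–70.7) against 46.5% of all merged regions, and SW in 28 (52.8%, 39.7–65.6) against 49.3%. NS rottlerin had 31 (58.5%) against 58.4%, and SW rottlerin 45 (84.9%, 73.0–92.2) against 74.5%. All 4 lists had a peak in 18 regions (34.0%, 22.7–47.4), where the share over all regions was 26.6%, and 17 regions (32.1%, 21.1–45.5) had a peak in 1 list, where it was 38.8%. Of those 17, 11 came from SW rottlerin, the longest list, and no share over all regions in 1 list stands beside this count.

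No NS peak was called in 22 of the 53 regions (41.5%, 29.3–54.9), against 53.5% of all regions. The NS list is the shortest, and with each list cut to the same number of peaks the share was 24.4% (13.8–39.3) at these genes and 41.6% over all regions. Without the longest list, SW rottlerin, it was 27.9% (12 of 43 regions, 16.7–42.7), against 43.3%. Both of these intervals lie below the share over all regions, but leaving out the longest list was chosen after seeing the data. In the higher-scoring 50% of each list the share was 40.7% (11 of 27 regions, 24.5–59.3), against 52.1%. That interval holds the share over all regions. The intervals treat regions of the same locus as independent, so whether the share at these genes is lower is not settled. Regions in every list but NS numbered 3 (5.66%, 1.94–15.4, all regions 7.08%), and regions in the NS list alone also numbered 3 (5.66%, all regions 7.83%). With the lists uncut, each of these intervals holds the share over all regions.

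**Figure D1:**
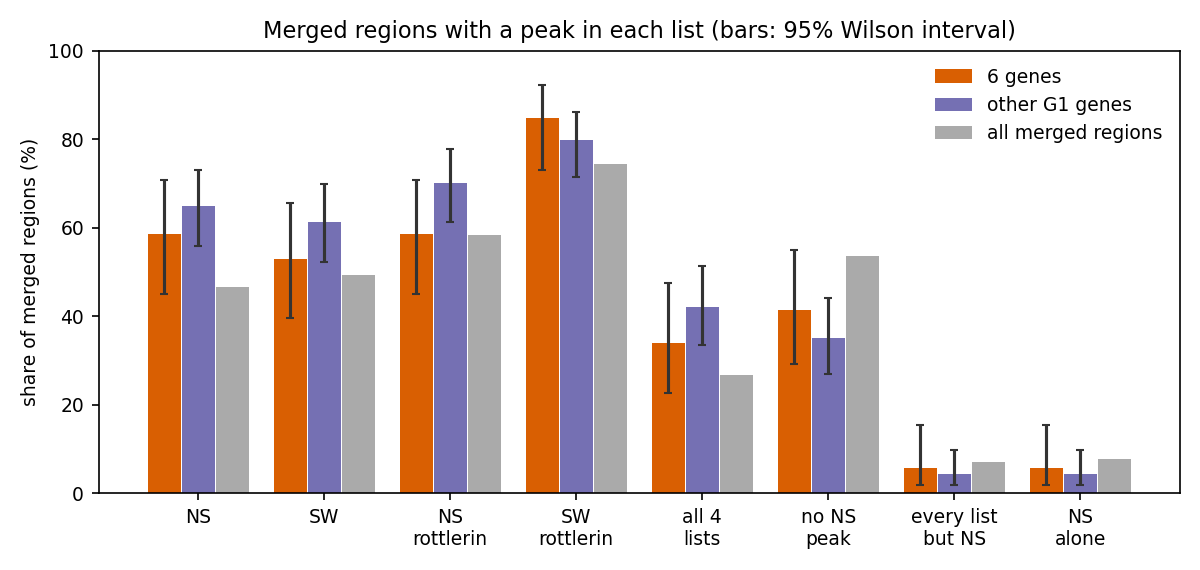
Share of merged regions, in percent, with a peak in each list and in 4 combinations of lists, for the 6 genes (53 regions, orange), 22 other G1 genes (114 regions, purple) and all 40703 regions (grey), with 95% Wilson intervals as error bars. The SW rottlerin bar is the highest of the 4 lists in each set, at 84.9%, 79.8% and 74.5%.

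The 5 genes with a region differed in how many regions they held and how dense these were. CDK6 had 9.94 regions per 100 kb of its window, more than 98.8% of 20110 coding genes, and CCND3 had 7.25, more than 95.4%. At CDKN1B the density was 7.0 per 100 kb (above 92.2% of coding genes) and at CCND2 4.00 (above 69.7%). CDKN1A, with 2.00, lay below the median coding gene, which had 2.14 regions per 100 kb and 3 regions in its window. CDK6, with 28 of the 53 regions, accounted for 15 of the 22 without an NS peak and for 12 of the 17 found in 1 list. Its 15 of 28 is close to the 53.5% of all regions without an NS peak. Its 12 of 28 is near the 38.8% of all regions found in 1 list.

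A peak within 1 kb of the gene record's start was called for CCND2 and CCND3 in every list and for CDK6 in SW rottlerin alone, and for CDKN1A, CDKN1B and CDKN2A in none. Over all coding genes, the share with such a peak was 34.3% in NS, 35.4% in SW, 38.6% in NS rottlerin and 42.5% in SW rottlerin. For every gene but CDK6 the canonical transcript starts elsewhere than the gene record, and there the picture changed. Within 1 kb of the canonical start, CDKN1B had a peak in all 4 lists, CCND3 in every list but SW, CCND2 and CDK6 in SW rottlerin alone, and CDKN1A and CDKN2A in none. The region that covers the CCND3 start itself had no NS peak. The NS call there came from a separate region in intron 1, whose near edge lies within 1 kb.

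**Figure D2:**
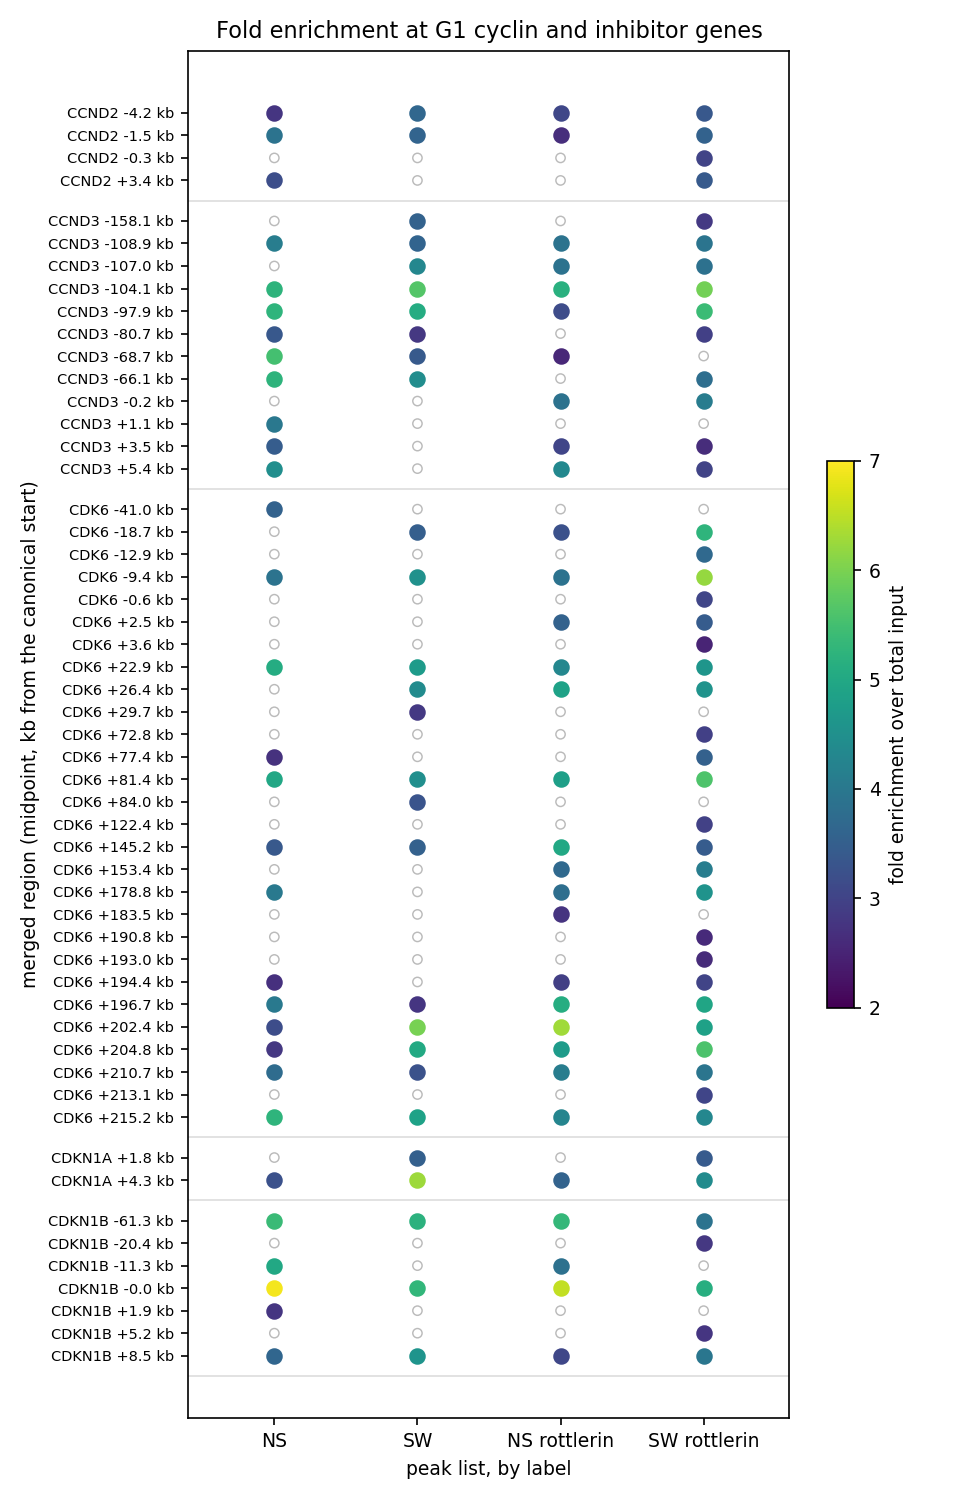
Fold enrichment over total input (colour scale, 2 to 7) of each of the 53 merged regions (rows, named by gene and distance of the midpoint from the canonical start in kb) in the 4 peak lists (columns), with open circles where no peak was called. The CDKN1B start at −0.03 kb is the highest value of all (6.90 in NS), and 12 of the 28 CDK6 rows are filled in 1 list only.

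CCND2 encodes cyclin D2, the D-type cyclin that T cells make early after activation. Its 4 regions lay within 7.92 kb of chromosome 12, around the gene at chr12:4378937-4414519 on the forward strand. The region at the start of the gene record, chr12:4378485-4378970, had a fold enrichment of 2.77 in NS, 3.66 in SW, 3.07 in NS rottlerin and 3.36 in SW rottlerin. NS was the lowest of the lists there, and no ratio to NS reached 1.5. At chr12:4381101-4381681 the order was different, with 3.90 in NS, 3.58 in SW, 2.66 in NS rottlerin and 3.55 in SW rottlerin, NS being the highest.

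At the canonical CCND2 start, only SW rottlerin had a peak, with a fold enrichment of 3.01. The coding gene ENSG00000285901 has its start there too, and which of the genes this peak belongs to cannot be told apart. The 4th CCND2 region, in intron 2 at +3.38 kb, had 3.17 in NS and 3.40 in SW rottlerin and no peak in SW or NS rottlerin. All 4 CCND2 midpoints lay in introns, which include those of the antisense gene CCND2-AS1.

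CCND3, the gene of cyclin D3 and the D-type cyclin on which thymocyte growth depends, spans chr6:41902672-42018095 on the reverse strand. Its 12 regions fell into 4 near the canonical start and its short transcript, 7 toward the far start of the gene record, and 1 beyond it at C6orf132. The region at −0.19 kb, chr6:41909488-41909976, had no NS or SW peak and reached 3.88 in NS rottlerin and 4.07 in SW rottlerin. Beside it, chr6:41908403-41908578 in intron 1 was in the NS list alone, at 4.00. These 2 regions, the nearest to this start, lay 909 bp apart, and no list had a peak in both. Regions in the NS list alone made up 7.83% of all regions. For regions in both rottlerin-labelled lists only, no share over all regions stands beside this. Each call rests on 1 library per label.

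Downstream of the canonical start, CCND3 regions at +3.47 and +5.44 kb had a peak in every list but SW. Of the 53 regions, 4 had this pattern, the rest of them at CDK6, and no share over all regions stands beside this count. The one at +5.44 kb had 4.45 in NS, 4.34 in NS rottlerin and 3.01 in SW rottlerin. At +3.47 kb the same lists gave 3.45, 3.03 and 2.63, so that NS was the highest in both CCND3 regions.

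Toward the far start, the list labelled NS rottlerin was low at 2 CCND3 regions. It had no peak at chr6:41975546-41975816 and chr6:41990047-41990521, where each of the other lists had one. The CCND3 regions nearest the far start, given below, did have an NS rottlerin peak. At chr6:41977895-41978513 the fold enrichment was 5.50 in NS, 3.40 in SW and 2.55 in NS rottlerin, with no peak in SW rottlerin. This is a log2 ratio to NS of −0.70 in SW and −1.11 in NS rottlerin, both past 1/1.5. At chr6:42007263-42007575 it was 5.25 in NS, 5.07 in SW, 3.14 in NS rottlerin and 5.41 in SW rottlerin, so NS rottlerin stood apart with a log2 ratio of −0.74 while the other lists lay close together.

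The highest CCND3 value was at chr6:42013323-42013881, with 5.23 in NS, 5.66 in SW, 5.18 in NS rottlerin and 5.94 in SW rottlerin, with no ratio to NS reaching 1.5. A region 2.43 kb on, chr6:42016311-42016717, was in every list but NS, with 4.31 in SW, 3.88 in NS rottlerin and 3.85 in SW rottlerin. The far start itself, chr6:42018131-42018695, lies 162 bp from the start of TAF8, a subunit of the general transcription factor TFIID that is read in the opposite direction. It had 4.10, 3.59, 3.90 and 3.92 in NS, SW, NS rottlerin and SW rottlerin, and which of the genes it belongs to cannot be told apart.

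CDK6, the kinase partner of the D-type cyclins in lymphocytes, spans chr7:92234235-92465887 on the reverse strand. Of its 28 regions, 27 had the midpoint in an intron of some transcript, and those upstream of the start lay in introns of the antisense gene CDK6-AS1. SW rottlerin had a peak in 24 regions, NS rottlerin in 16, and NS and SW in 13 each. Over all regions the shares were 74.5%, 58.4%, 46.5% and 49.3% in the same order. At the start, only SW rottlerin had a peak, at chr7:92466378-92466609 and 3.05. Inside the gene, the region at +2.51 kb had 3.56 in NS rottlerin and 3.43 in SW rottlerin and no NS or SW peak.

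Introns 5 and 6 held the densest group, 11 regions within 37.0 kb from +179 to +215 kb, 10 in intron 5 and 1 in intron 6 of the 7 introns. NS had a peak in 7 of the 11, SW in 5, NS rottlerin in 8 and SW rottlerin in 10, and 5 of the 11 were in every list. Over all regions the shares were 46.5%, 49.3%, 58.4% and 74.5% in the same order, and 26.6% in every list. FAM133B is the nearest other coding gene on that side, and its start lay 30935 bp from the nearest of the 11.

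**Figure D3:**
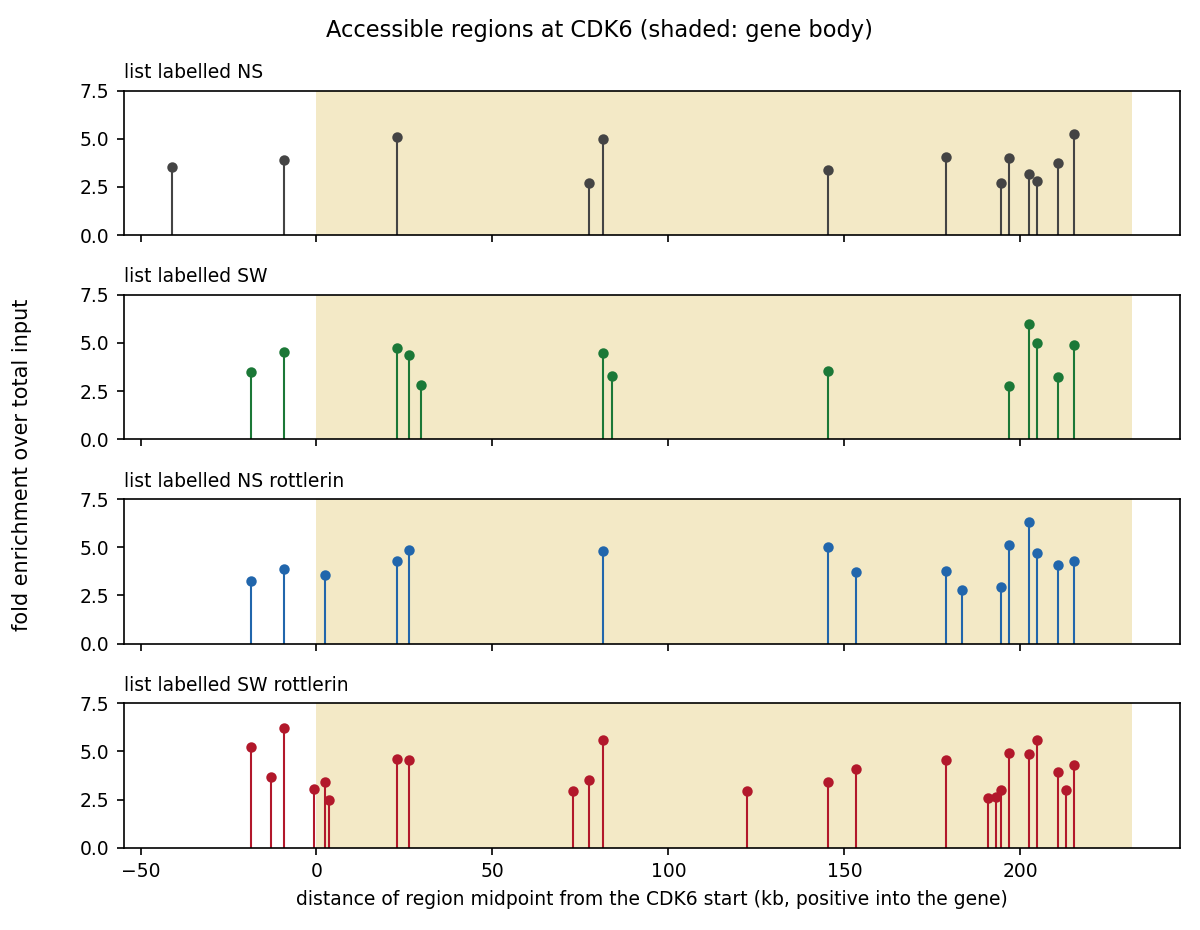
Fold enrichment over total input (vertical axis, linear) of the regions with a peak at CDK6 in each of the 4 lists (panels), against the distance of the region midpoint from the CDK6 start in kb, positive into the gene. The shaded band is the gene body, and the group near +200 kb holds 7, 5, 8 and 10 of the stems from the top panel to the bottom panel.

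A neighbouring pair in this group differed from NS in the same direction in the 3 other lists. At chr7:92260755-92261343 the fold enrichment was 2.81 in NS, 5.02 in SW, 4.72 in NS rottlerin and 5.59 in SW rottlerin, and NS lay below every other value. The log2 ratios to NS were 0.84, 0.75 and 0.99. At chr7:92262456-92264566, 1112 bp further on, it was 3.15 in NS, 5.98 in SW, 6.30 in NS rottlerin and 4.87 in SW rottlerin.

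For this second region the log2 ratios were 0.92, 1.00 and 0.63, and 6.30 was the highest value at CDK6. The peaks also differed in length, covering 199 bp in NS, 584 bp in SW, 593 bp in NS rottlerin and 1922 bp in SW rottlerin, and SW had 2 peaks in it, whose length-weighted fold enrichment was 5.35. Merging joins peaks in a chain, and whether the NS peak overlaps the SW and NS rottlerin peaks here was not checked. The ratios of this second region may therefore compare different bases. The neighbouring pair were the 2 of 18 regions at the 6 genes that reached 1.5 times NS in all 3 other lists (11.1%, 3.10–32.8). The share over all 10841 regions in 4 lists was 0.618%. Both regions of the pair are from 1 stretch of 1 intron, so they do not count as separate observations. The 37.0 kb group was described with its values in view.

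Elsewhere at CDK6, 2 regions were in every list but NS. At chr7:92439094-92439839 in intron 2, +26.4 kb, SW had 4.39, NS rottlerin 4.88 and SW rottlerin 4.57, values within a narrow range. At chr7:92484206-92484955, −18.7 kb, the same lists gave 3.50, 3.25 and 5.25, SW rottlerin being the highest. This upstream region is the one whose sequence is shown above with an NFAT and a RUNX match.

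SW rottlerin was also the highest at chr7:92475048-92475436, −9.36 kb, with 6.21 against 3.90 in NS, 4.51 in SW and 3.88 in NS rottlerin. Its log2 ratio to NS was 0.67, and the other lists did not reach 1.5 times NS. The region farthest upstream, chr7:92506831-92507004 at −41.0 kb, was in the NS list alone at 3.54. Of the 12 CDK6 regions found in 1 list, 8 came from SW rottlerin, the longest list, with values from 2.49 to 3.69. No share over all regions in 1 list stands beside this count.

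CDKN1A encodes p21, the inhibitor that p53 switches on after DNA damage and that PMA is known to raise in many cells. The gene lies at chr6:36644237-36655114 on the forward strand, and no list had a peak within 1 kb of either start considered. Both of its regions lay in intron 1 of the canonical transcript, 2.83 kb from end to end. At +1.80 kb, chr6:36648116-36648455 had 3.51 in SW and 3.42 in SW rottlerin and no peak in NS or NS rottlerin. This was one of 2 regions among the 53 that both SW-labelled lists had and both NS-labelled lists lacked, the other being at C6orf132 beyond CCND3. These 2 are 3.77% of the 53, with an interval of 1.04–12.8, and the pattern was found in 6.26% of all regions.

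At +4.27 kb, chr6:36650582-36650945 had 3.24 in NS, 6.27 in SW, 3.57 in NS rottlerin and 4.39 in SW rottlerin. SW alone reached 1.5 times NS, with a log2 ratio of 0.95, the highest of the 21 ratios of SW to NS at the 6 genes. In SW rottlerin the log2 ratio was 0.44 and in NS rottlerin 0.14. The −log10 q-value of the peak was 3.22 in NS, 16.4 in SW, 4.30 in NS rottlerin and 7.43 in SW rottlerin, in the same order as the fold enrichment.

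CDKN1B encodes p27, which holds resting T cells out of the cycle, and lies at chr12:12838432-12875303 on the forward strand. Its canonical start carried the highest value at any of the genes. There, chr12:12870109-12870430 had 6.90 in NS, 5.29 in SW, 6.55 in NS rottlerin and 5.14 in SW rottlerin. Both NS-labelled lists lay above both SW-labelled lists, by less than 1.5 times.

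The −log10 q-value of the peak at the CDKN1B start was 19.2, 10.6, 17.3 and 10.2 in NS, SW, NS rottlerin and SW rottlerin. At −11.3 kb, chr12:12858857-12859093 had 4.99 in NS and 3.85 in NS rottlerin and no peak in SW or SW rottlerin. It was the only region of the 53 called in both NS-labelled lists and in neither of the others (1.89%, 0.334–9.94), a pattern found in 2.07% of all regions.

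In the rest of the CDKN1B window, chr12:12808918-12809159 had 5.39 in NS, 5.20 in SW, 5.32 in NS rottlerin and 3.91 in SW rottlerin, with SW rottlerin the lowest. In intron 2 of the canonical transcript, +1.89 kb, chr12:12871864-12872521 was in the NS list alone at 2.77, below that list's median of 4.05. A pair of regions lay within 1 kb of other coding genes. At 48 bp from the start of APOLD1, a gene of endothelial signalling, chr12:12878009-12879596 had 3.63 in NS, 4.59 in SW, 3.07 in NS rottlerin and 3.96 in SW rottlerin. At 765 bp from the start of GPR19, an orphan receptor gene, chr12:12849547-12850265 had a peak in SW rottlerin alone, at 2.81.

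CDKN2A encodes p16 and p14ARF, an inhibitor of CDK4 and CDK6 and a guard of p53, and loss of its locus is common in T cell leukaemia and known in Jurkat cells. No list had a region in its body (chr9:21967751-21995300, reverse strand) or within 50 kb of its start, which was the case for 14.3% of coding genes. The absence ran far beyond the gene. From chr9:21111264 to chr9:26892287, a stretch of 5781 kb, no list had a peak, and the nearest regions lay 884 kb and 4897 kb from the CDKN2A start.

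Of 40537 such stretches between neighbouring regions with no unknown base, 2 were at least as long, this one and one on chromosome X of 7626 kb with 6 coding starts. The median stretch was 24.2 kb. The starts of 23 coding genes lay in the stretch at CDKN2A, among them its neighbour CDKN2B, which encodes p15, the interferon-alpha genes, MTAP and ELAVL2. Of 6017 stretches over 100 kb, 5 held at least as many coding starts. At the higher end of the CDKN2A stretch, a region at CAAP1 had 5.44 in NS, 4.54 in SW, 4.00 in NS rottlerin and 6.04 in SW rottlerin. At the lower end, a region near IFNW1 had 3.25 in SW alone. A peak list holds no copy number, so DNA that is lost and DNA that is closed cannot be told apart here.

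**Figure D4:**
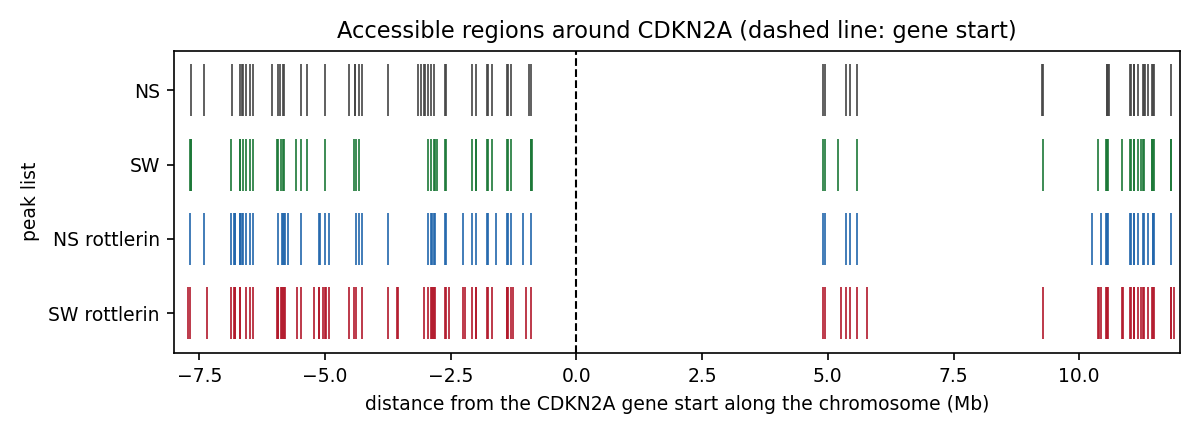
Positions of merged regions with a peak (ticks) in each of the 4 lists (rows) around CDKN2A, against the distance from the gene start along the chromosome in Mb, with the gene start as a dashed line. No list has a tick within 884 kb below the start or 4897 kb above it.

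Where a region at the 6 genes had a peak in NS and in another list, the ratio of the fold enrichment was mostly near 1. The median log2 ratio to NS was −0.10 over 21 regions in SW, −0.04 over 24 in NS rottlerin and 0.09 over 26 in SW rottlerin, and the medians over all regions were −0.03, 0.05 and 0.09. At least 1.5 times NS was reached in 3 of 21 regions in SW (14.3%, 4.98–34.6), where the share over all regions was 1.67%. The count was 2 of 24 in NS rottlerin (all regions 3.19%) and 3 of 26 in SW rottlerin (all regions 4.5%). The regions behind these counts are the CDK6 pair in each list, CDKN1A at +4.27 kb in SW and CDK6 at −9.36 kb in SW rottlerin. For the wider region of the CDK6 pair, whether the NS peak overlaps the SW and NS rottlerin peaks was not checked.

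A fold enrichment of at most 1/1.5 of NS was found in 1 of 21 regions in SW (all regions 2.18%), 2 of 24 in NS rottlerin (all regions 1.38%) and 0 of 26 in SW rottlerin (all regions 1.54%). All of these were at 2 regions of CCND3. The intervals of the shares hold those over all regions, except for the higher count in SW and the lower count in NS rottlerin (8.33%, 2.32–25.9), each resting on 2 or 3 regions. At the other G1 genes described last, at least 1.5 times NS was reached in 1 of 58 regions in SW, 0 of 57 in NS rottlerin and 2 of 62 in SW rottlerin.

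**Figure D5:**
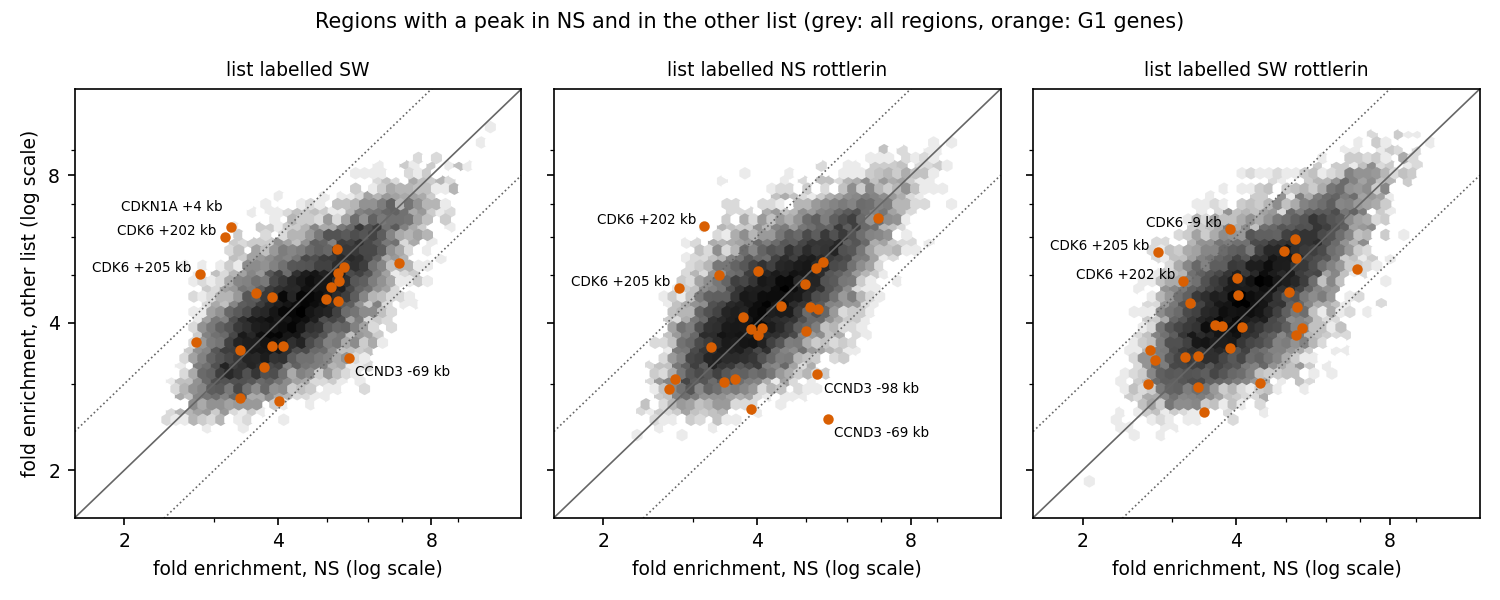
Fold enrichment of each region in NS (horizontal axis) and in SW, NS rottlerin or SW rottlerin (vertical axis, 1 panel each), both on a log scale, for all regions with a peak in both lists (grey, darker where denser) and for those at the 6 genes (orange, 21, 24 and 26 points). The solid line is equality and the dotted lines are 1.5 times in either direction, past which the CDK6 pair lies in each panel.

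In sequence, the regions at the 6 genes had a median GC content of 45.3% and a median of 4 CpG in their central 300 bp, close to the 46.3% and 4 of all regions. The 18 found in all 4 lists had 46.7% and 4.5 CpG, below the 57.0% and 15 of all regions in 4 lists. Of these 18, those at a start of CCND2, CCND3, CDKN1B or APOLD1 are the ones within 1 kb of a coding start. Widths ran from 174 to 2111 bp with a median of 407 bp, against 294 bp, and 5 of the 53 (9.43%) were at least 1 kb wide, against 5.26%. No midpoint lay in a coding exon.

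The NFAT letters were in the central 300 bp of 20 of the 53 regions (37.7%, 25.9–51.2), against 28.0% of all regions, and in 10 of the 22 without an NS peak (45.5%, 26.9–65.3), against 32.9% of all regions without one. In the same 22, CAGCTG was in 4 (18.2% against 15.4%) and RUNX in 3 (13.6% against 32.2%). AP1 and CACCTG were in 2 each (9.09%, against 19.8% and 18.0%). For every motif searched, the interval in the 22 holds the share over all regions without an NS peak. CAGCTG was in 14 of the 53 (26.4%, 16.4–39.6) against 17.1%, and RUNX in 14 (26.4%) against 32.8%. Below the share over all regions lay CACCTG in 7 (13.2% against 21.4%), GATA in 8 (15.1% against 21.0%), the GC box in 9 (17% against 22.6%), AP1 in 4 (7.55% against 13.2%) and ETS in 3 (5.66% against 10.5%). NFKB was in 3 (5.66% against 4.33%) and E2F in 2 (3.77% against 4.90%). EGR was in 0 of the 53, which allows a share of up to 6.76% by the Wilson interval, with 5.86% over all regions. For every motif the interval at the 6 genes holds the share over all regions, the NFAT and CAGCTG intervals only near their lower ends.

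Among 22 other genes of the G1 pathway, 21 had a region and 114 regions were found, with none shared with the 6 genes. No NS peak was called in 40 of the 114 (35.1%, 26.9–44.2), and all 4 lists had a peak in 48 (42.1%, 33.4–51.3). The intervals overlap those of the 6 genes (41.5% and 34.0%) but do not hold the shares over all regions, 53.5% and 26.6%. NS had a peak within 1 kb of the start of 16 of the 22 genes and of 2 of the 6, against 34.3% of all coding genes. The 2 of 6 is thus near the share over all coding genes. For 13 of the 22 all 4 lists had one, a count with no share over all coding genes beside it.

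No list had a peak at the start of 4 of the 22, CCND1 (cyclin D1), CDKN2B, and RBL1 and RBL2, which encode relatives of the retinoblastoma protein. CCNE1, the gene of cyclin E1, had a peak at its start in every list but NS, and CDKN1C, the gene of the inhibitor p57, in SW rottlerin alone. The most regions without an NS peak were at RB1, with 11 of its 24, followed by CCNE2 (cyclin E2) and E2F3 with 3 each. RB1 is a long gene, as CDK6 is, and its start had a peak in all 4 lists, whereas the CDK6 start had one in SW rottlerin alone.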

How the data were processed

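Peak lists from FAIRE-seq were used for 4 of the 9 Jurkat libraries, the remaining 5 being not analysed here. Per the study's methods, the authors removed adapters (CutAdapt), aligned reads to Hg19 (Bowtie2), discarded duplicates (Picard) and called broad peaks over total input (MACS2), by those methods in the DMSO samples. The deposited lists give the position of each peak, a score (10 times the −log10 q-value without its decimals), the fold enrichment over total input as a linear ratio, and the −log10 p-value and −log10 q-value. No read counts were used, so depth is unknown, and a list from a deeper library can hold more peaks for that reason.

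Peaks that overlapped or touched were merged, checked against bedtools 2.31.1, keeping the autosomes, X and Y. A region took the highest fold enrichment of a list's peaks in it. Gene models were those of GENCODE release 44 for GRCh37. Motifs were exact letters on both strands of the central 300 bp. The rule for regions described in full took those within 1 kb of a start, in every list but NS, in the NS list alone, past 1.5 times NS in either direction, or highest at a gene. Regions outside this rule were described too, among them CCND2 at +3.38 kb, CCND3 at +5.44 kb, CDKN1A at +1.80 kb and CDKN1B at −11.3 kb. No rule fixed beforehand chose these. Other genes were named where a region lay within 1 kb of their start, and of the other G1 genes those with no region, with a start peak outside NS only, or with the most regions without an NS peak; RBL1, RBL2 and CCND1, the antisense genes, and the genes named in or beside the stretch at CDKN2A, were added after their values were seen. The 6 genes and all lists were chosen with earlier results of these data known. The sequence of the CCND2 region is not reported here. The steps were tested on simulated data. Alternatives changed the merging, the q-value limit (0.05), the list length, peak strength, the window (20 and 100 kb), the start used, the region value and the scale, and leaving out the longest list was chosen after seeing the data. Scripts used matplotlib 3.10.9, pysam 0.24.0, scipy 1.17.1, pandas 2.3.3 and numpy 2.4.6 under Python 3.11.15.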

Additional observations from a re-analysis of the deposited data

How the results depend on the processing

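Of 101 values recomputed under the alternatives, 87 moved by less than their interval or 1.5 times and 14 moved by more. With the same number of peaks in each list, regions lacking an NS peak made up 24.4% at the 6 genes and 25.3% at the other G1 genes. SW rottlerin then had a peak in 24 of the 41 regions left at the 6 genes, where NS had 31, with no share over all regions beside these counts. With the longest list left out, the first share was 27.9%. With the higher-scoring 50% of each list, 27 regions were left at the 6 genes, with peaks in 16 for NS, 15 for SW, 15 for NS rottlerin and 19 for SW rottlerin, and 18.5% were in all 4 lists. Within 50 kb of the start only, without the gene body, 31 regions were left, with peaks in 18 for NS, 17 for NS rottlerin and 26 for SW rottlerin. These settings keep fewer peaks or a smaller window by construction. The median log2 ratio of SW rottlerin to NS, 0.09, was −0.01 within 50 kb of the start only and −0.03 with the lists scaled to their medians, so its direction is not settled. The stretch without a peak around CDKN2A was 5781 kb or 5810 kb under the settings that apply to it. Presence of a peak depends on depth, which is unknown. No paired analysis was possible because each label has 1 library.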
